A study of Rattus norvegicus with 22 samples.

Results

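Cell cycle and DNA replication genes were followed as a module of 58 listed symbols, taken by name as rows of the gene table. Of these, 57 were in the table and 1, the kinesin gene Cenpe, was not listed under that symbol and was dropped. All 57 passed the filter on low values, at least 1 FPKM in at least 3 samples, which 9691 of the 17284 genes in the table passed. By role they form 5 D cyclin and G1 kinase genes, 3 CDK inhibitor genes, 21 genes of the G1/S transition and DNA replication and 28 genes of G2 and mitosis. RNA was sequenced in 22 samples of microglia, which are the macrophages that live in brain tissue. They were purified from Sprague-Dawley rats at postnatal day 21 on dishes coated with an antibody to CD11b, a surface protein that granulocytes and monocytes carry too. In the Acute group (n = 3) RNA was taken from freshly isolated cells. The other 4 groups were all cultured for 8 days: TIC (n = 6) without serum in a medium that the labels call TIC, and FCS 1d (n = 5), FCS 3d (n = 4) and FCS 5d (n = 4) in the same medium with 10% fetal calf serum added for the last 1, 3 or 5 days. The labels name no engineered allele and do not say which samples came from the same animals or preparation.

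A cell that divides copies its DNA in S phase and parts the copies in mitosis. In G1, D cyclins with the kinases CDK4 and CDK6, and then E cyclins with CDK2, phosphorylate the retinoblastoma protein, which frees E2F transcription factors to switch on replication genes; CDK inhibitors such as p21 and p27 hold these kinases back. A later wave of genes for mitosis is switched on through the MuvB complex with B-MYB and FOXM1 and through the NF-Y factor, which binds CCAAT boxes. Microglia divide slowly in the adult brain and depend on signals through the CSF1 receptor to survive and to divide.

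The G1/S and G2/M classes differed in the letters of their promoters, so 3 windows of each class are printed here. Windows run from 250 bases before to 50 bases after a gene start, from RefSeq on the rat build GRCr8, and 44 of the 58 symbols had one. An E2F-type match (TTCCCGC or its variants, which were TTGGCGC, then TTCGCGC and finally TTGCCGC, on either strand) was found for 10 of 16 G1/S genes (62.5%), for 4 of 23 G2/M genes (17.4%) and for 10.6% of all 27457 genes with a window. A CHR match, the cell cycle homology region known from mitotic genes (TTTGAA or TTCGAA on either strand), was found for 3 of 16 G1/S genes (18.8%), for 15 of 23 G2/M genes (65.2%) and for 21.0% of all genes. CCAAT, on either strand, was in the windows of 62.5%, 82.6% and 39.6%, and CHR and CCAAT together in those of 12.5%, 60.9% and 8.57%. Among the 11675 genes of the FPKM table with a window, the shares were 15.0% for E2F-type, 15.4% for CHR, 38.1% for CCAAT and 6.3% for CHR and CCAAT together. The E2F-type share of G2/M genes and the CHR share of G1/S genes were thus near those of the table's genes. The windows shown belong to the members with the largest rise with 3 days of serum that held a match of their class's kind. The first 3 are of the replicative helicase genes Mcm5 (chr19:13488563-13488862, plus strand), Mcm7 (chr12:22163129-22163428, minus strand) and Mcm3 (chr9:30733697-30733996, minus strand), with capitals on E2F-type matches, which run into each other where they overlap.
Mcm5: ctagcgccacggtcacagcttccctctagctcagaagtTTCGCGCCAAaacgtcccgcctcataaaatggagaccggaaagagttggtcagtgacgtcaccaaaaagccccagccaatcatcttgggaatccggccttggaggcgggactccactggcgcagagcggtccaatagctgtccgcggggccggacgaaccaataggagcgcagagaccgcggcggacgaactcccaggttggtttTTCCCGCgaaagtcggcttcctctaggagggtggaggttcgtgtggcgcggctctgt
Mcm7: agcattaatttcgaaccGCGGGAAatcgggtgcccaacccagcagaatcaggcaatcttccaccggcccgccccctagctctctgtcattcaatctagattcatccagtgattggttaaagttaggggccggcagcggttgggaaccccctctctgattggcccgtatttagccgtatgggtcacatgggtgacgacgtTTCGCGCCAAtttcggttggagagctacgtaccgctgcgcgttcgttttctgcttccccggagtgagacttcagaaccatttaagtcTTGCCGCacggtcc
Mcm3: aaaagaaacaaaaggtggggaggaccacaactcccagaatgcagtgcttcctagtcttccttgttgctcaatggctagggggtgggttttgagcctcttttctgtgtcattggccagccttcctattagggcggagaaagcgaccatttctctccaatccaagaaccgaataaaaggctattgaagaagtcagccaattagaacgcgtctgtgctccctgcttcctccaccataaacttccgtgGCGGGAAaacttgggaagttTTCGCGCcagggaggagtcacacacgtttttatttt
The other 3 are of the mitotic kinase gene Cdk1 (chr20:19265043-19265342, plus strand), the centromeric histone gene Cenpa (chr6:31431503-31431802, minus strand) and the polo-like kinase gene Plk1 (chr1:186147408-186147707, plus strand), with capitals on CHR matches.
Cdk1: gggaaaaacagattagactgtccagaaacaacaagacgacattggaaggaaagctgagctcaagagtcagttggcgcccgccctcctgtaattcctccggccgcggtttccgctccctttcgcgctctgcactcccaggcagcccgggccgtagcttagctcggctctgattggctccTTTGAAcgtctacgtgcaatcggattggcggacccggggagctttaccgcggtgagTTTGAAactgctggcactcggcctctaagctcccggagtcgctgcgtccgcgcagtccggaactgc
Cenpa: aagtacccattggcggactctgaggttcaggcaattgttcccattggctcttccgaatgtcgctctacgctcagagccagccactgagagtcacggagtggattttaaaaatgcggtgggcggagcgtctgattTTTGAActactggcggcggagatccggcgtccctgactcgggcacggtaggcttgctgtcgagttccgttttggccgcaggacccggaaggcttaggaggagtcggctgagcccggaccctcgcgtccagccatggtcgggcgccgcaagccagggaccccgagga
Plk1: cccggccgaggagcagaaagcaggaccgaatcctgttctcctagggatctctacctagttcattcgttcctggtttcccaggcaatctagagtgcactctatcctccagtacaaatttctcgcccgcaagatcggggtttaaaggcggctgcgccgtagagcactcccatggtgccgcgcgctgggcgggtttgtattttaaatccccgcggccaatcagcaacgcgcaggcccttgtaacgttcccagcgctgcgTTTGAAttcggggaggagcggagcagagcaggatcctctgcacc
A match is a run of letters and not a bound site, and the windows of Tk1, Ccne1, Cdca3 and Bub1, which rose most in each class after 3 days of serum, held no match of their class's kind.

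Values are FPKM, in which read pairs are divided by gene length and by library size, so levels of different genes can be set side by side but depth is unknown. Summed FPKM was 564301 to 696703 in the 3 Acute libraries together with TIC 5, TIC 6 and FCS 1d 5, while the remaining 16 libraries had 335470 to 434577. Tested genes listed at 0 numbered 934 to 1295 in 10 libraries (Acute 1 and 2, TIC 1 to 3, FCS 1d 1 and 2, FCS 3d 1 and 3, FCS 5d 1), while the remaining 12 had 353 to 672. Summed FPKM of 15 microglial markers was 19714 to 32758 in Acute, 1428 to 3145 in TIC, 2326 to 3925 in FCS 1d, 3493 to 4849 in FCS 3d and 3630 to 8117 in FCS 5d. All 15 were detected in every group, but P2ry12, a receptor that defines microglia, was at 321 to 946 FPKM in Acute but at 2.65 to 47.7 FPKM in culture. Granulocyte and monocyte markers (11 genes) summed to 2101 to 19024 FPKM in Acute and to at most 53.4 FPKM in cultured libraries, where S100a9, Mpo, Elane, Prg2 and Epx were listed at 0. Lymphocyte and NK markers (7 genes) summed to 166 to 341 FPKM in Acute and at most 7.05 FPKM in culture, with Ms4a1, Cd3e and Cd3d at 0 there, and red cell markers (4 genes) to 696 to 1994 and at most 0.651 FPKM. Summed markers of oligodendrocytes, astrocytes, vessels, neurons and fibroblasts reached at most 52.1, 28.6, 65.6, 18.1 and 1.36 FPKM in any cultured library.

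The cyclin D1 and D2 genes and Cdk6 were higher in serum-free culture than in fresh cells. Ccnd1, cyclin D1, had levels of 16.3, 7.07 and 53.8 FPKM in the 3 Acute libraries. Its lowest, median and highest levels in TIC were 130.5, 265 and 374 FPKM, without overlap (TIC minus Acute log2 3.63 ± 0.42, adjusted p = 3.0e-07). It was at 77.7, 84, 117, 117 and 127 FPKM in FCS 1d, below every TIC library, at 122, 165, 134 and 202 FPKM in FCS 3d and at 145, 167, 147 and 107 FPKM in FCS 5d. None of the serum groups differed from TIC by the test (adjusted p = 0.063, 0.33 and 0.19 for 1, 3 and 5 days), and within TIC the 3 libraries TIC 4 to 6 were all above TIC 1 to 3. Ccnd2, cyclin D2, stood at 23.1, 10.2 and 47.7 FPKM in Acute and at 41.4, 79.2 and 138 FPKM in TIC (TIC minus Acute log2 1.78 ± 0.40, adjusted p = 0.0010). It was at 68.6, 76.7, 97.1 and 93.6 FPKM in FCS 3d and at 17, 46.4, 43.1 and 46.7 FPKM in FCS 5d, all below FCS 3d. Against TIC, FCS 5d was lower (log2 -1.15 ± 0.36, adjusted p = 0.039), a call lost on leaving out any 1 of 7 libraries, such as FCS 5d 1 (log2 -0.81, adjusted p = 0.18). Cdk6 was listed at 0 in Acute 1 and 2 and at 5.62 FPKM in Acute 3, against 6.62, 14.7 and 19.2 FPKM in TIC (log2 2.92 ± 0.46, adjusted p = 2.3e-05), and did not differ from TIC at any serum time (lowest adjusted p = 0.62). Between TIC and Acute, the calls of Ccnd2 and Cdk6 were each lost in 1 of 22 alternatives. For Cdk6 this was with only the libraries of high summed FPKM. Over the alternatives the changes went down to log2 1.14 for Ccnd2 and 1.47 for Cdk6. Cdk4 showed no such rise from Acute to TIC: it had 121, 75.5 and 87.5 FPKM in Acute and 40.1, 78 and 127 FPKM in TIC, overlapping, and reached 149, 156, 124 and 158 FPKM in FCS 3d (log2 0.91 ± 0.29, adjusted p = 0.047 against TIC). The Cdk4 call was lost on leaving out any 1 of 8 libraries (log2 0.87, adjusted p = 0.12 without FCS 3d 4). Ccnd3, cyclin D3, was at 18.6, 115 and 101 FPKM in fresh cells, at 23.7, 36.6 and 53.7 FPKM in TIC and at 30.6, 34.9, 30.7 and 29.4 FPKM in FCS 3d, and gave no call in any comparison.

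**Figure D1:**
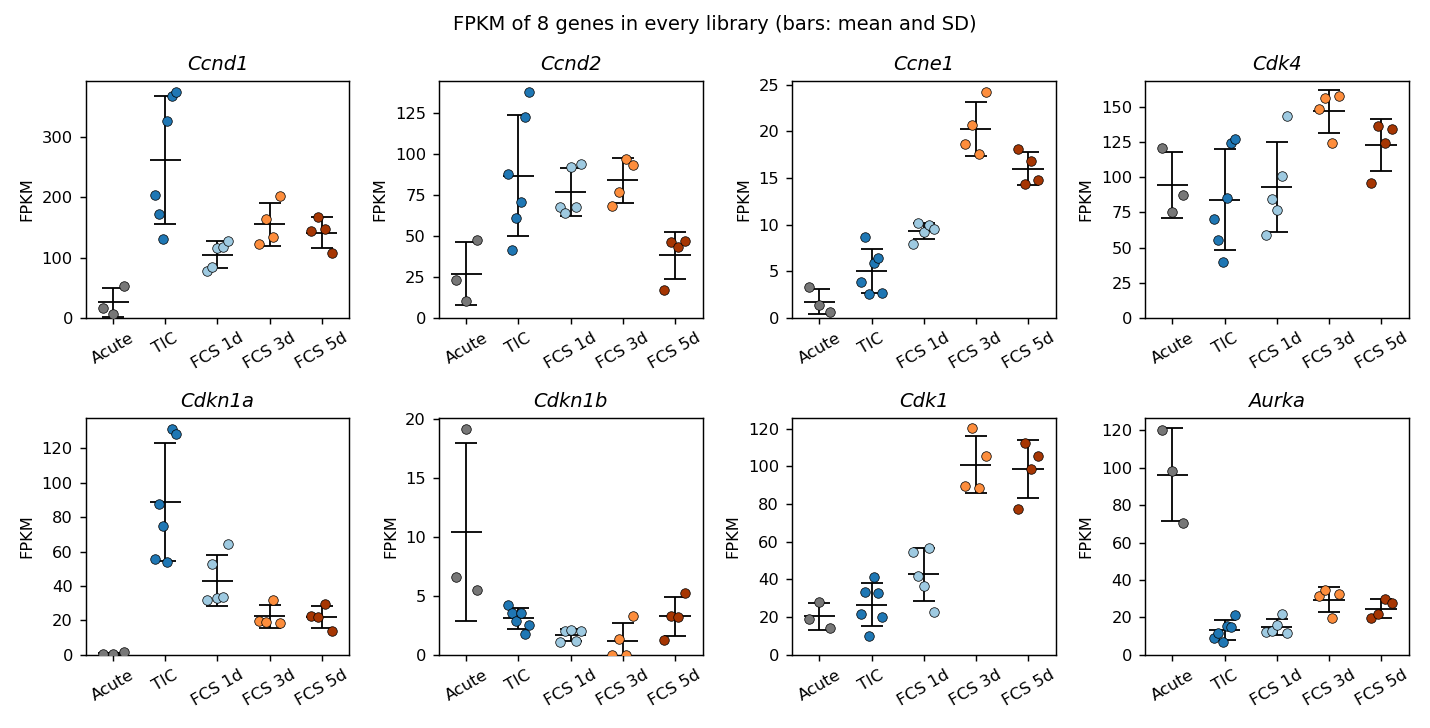
FPKM of 8 genes in each library (points), by group, with the group mean and SD as bars. Cdkn1a and Ccnd1 are highest in TIC, Cdk1 and Ccne1 in FCS 3d and FCS 5d, and Aurka in Acute (70.6 to 120.1 FPKM).

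The CDK inhibitor genes went in different directions. Cdkn1a, which encodes p21, had 0.567, 0.557 and 1.30 FPKM in Acute and 53.7, 81.2 and 131 FPKM in TIC, a mean 109.9 times as high (log2 5.57 ± 0.32, adjusted p = 2.7e-12). With serum it stood at 31.8, 52.5, 32.9, 33.4 and 64.7 FPKM after 1 day, overlapping TIC (log2 -1.0 ± 0.28, adjusted p = 0.051). It was at 19.3, 18.9, 31.9 and 18.7 FPKM after 3 days (log2 -1.90 ± 0.30, adjusted p = 0.00019) and at 22.3, 21.7, 29.7 and 13.8 FPKM after 5 days (log2 -1.93 ± 0.30, adjusted p = 8.6e-05), both below every TIC library and above every Acute library. Cdkn1a was the only member called lower in FCS 3d than in TIC, and it was called in every alternative setting except with only the libraries with many zeros (log2 -1.49, adjusted p = 0.070). Cdkn1b, which encodes p27, went the other way in culture, from 6.61, 19.2 and 5.49 FPKM in Acute to 1.78, 3.18 and 4.22 FPKM in TIC, all below Acute (log2 -1.32 ± 0.44, adjusted p = 0.018). Leaving out Acute 2 ended the call (log2 -0.81, adjusted p = 0.17). Cdkn1b was listed at 0 in FCS 3d 1 and 3 and was at 1.32 and 3.25 FPKM in FCS 3d 2 and 4, no call against TIC (adjusted p = 0.064). Cdkn2c, which encodes p18, was at 5.89, 14.1 and 5.89 FPKM in fresh cells and at 3.47, 5.26 and 10.9 FPKM in TIC, reached 17.6, 8.09, 11.8 and 5.80 FPKM in FCS 3d and 12.2, 5.63, 26.2 and 7.46 FPKM in FCS 5d, overlapping TIC each time, and gave no call.

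**Figure D2:**
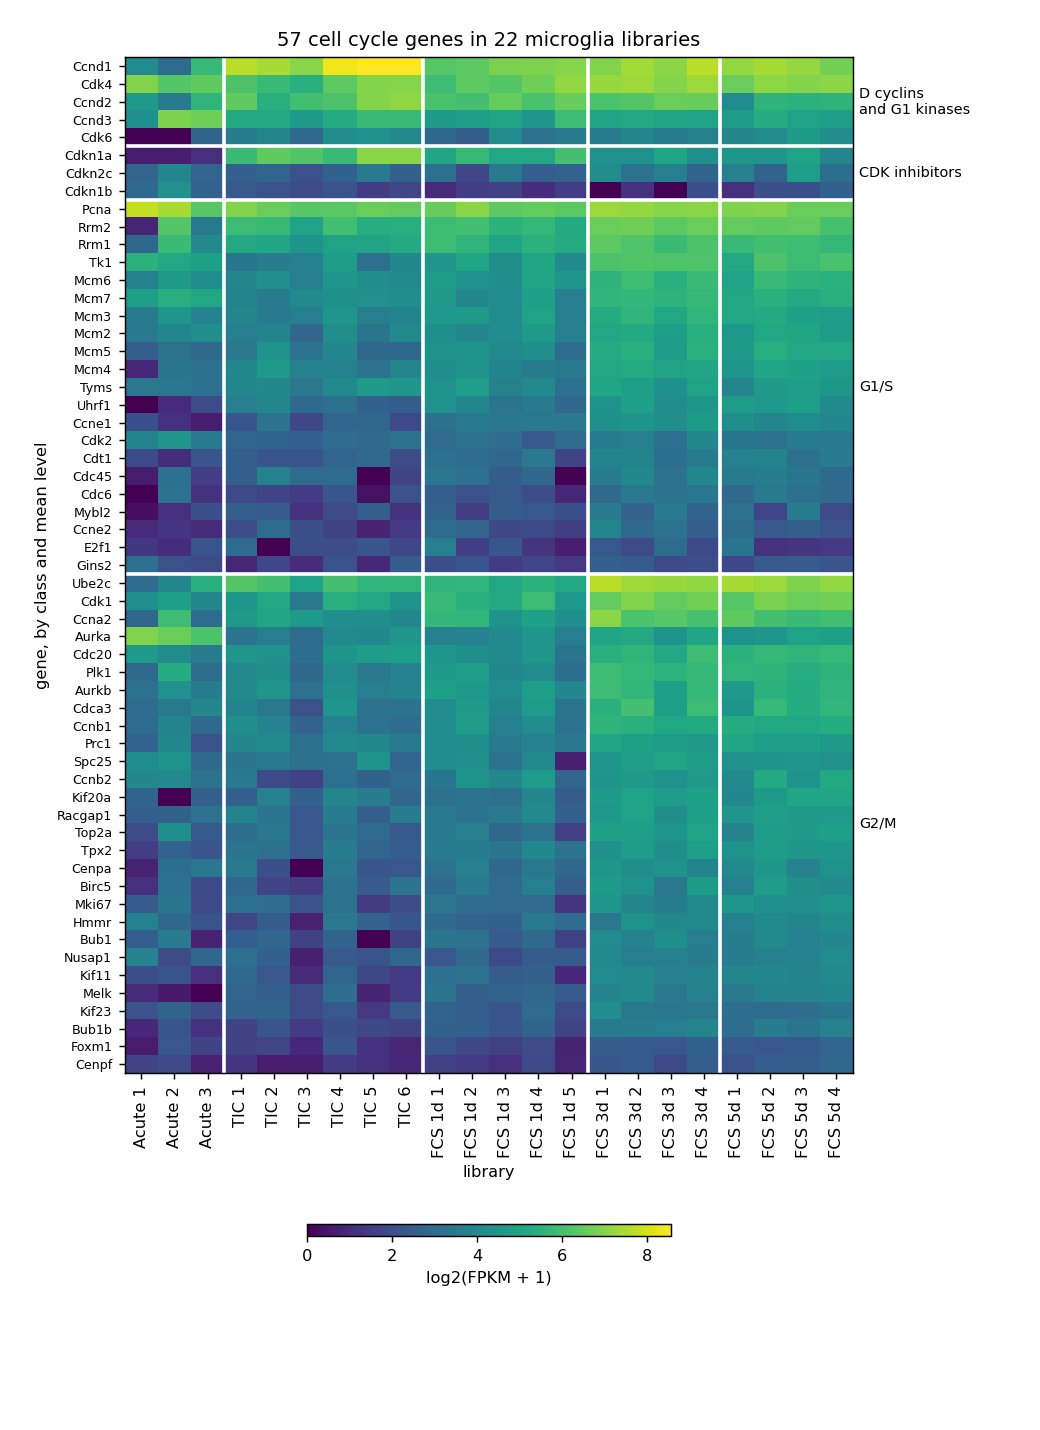
Heat map of log2(FPKM + 1) for the 57 genes (rows, by class and mean level) in the 22 libraries (columns, by group). Most G1/S and G2/M rows are brighter in the 8 libraries of FCS 3d and FCS 5d than in the cultured libraries with no serum or 1 day of it, and Aurka is brightest in Acute.

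Between freshly isolated cells and serum-free culture the members showed no common direction. In TIC, 13 of 57 were higher than in Acute and 6 were lower, beside 14.7% of all tested genes higher and 27.7% lower. The median change over all tested genes was log2 -0.29, so a log2 change of a single gene in this comparison reads against that value. Of the G1/S genes, 4 were higher (Uhrf1, Rrm2, Mcm4 and Ccne1) and 3 lower (Tk1, Mcm7 and Cdk2), with a class median of log2 0.55. Of the G2/M genes, 5 were higher (Ube2c, Melk, Kif20a, Prc1 and Tpx2) and 2 lower (Aurka and Ccnb2), with a class median of log2 0.095. With the division of libraries by summed FPKM as a term in the fit, these medians became log2 -0.07 and -0.33. Of the 19 calls in this comparison, 12 remained without any 1 library, and all kept their sign under 22 alternatives. With only the libraries of high summed FPKM, and so fewer samples, 4 remained (Aurka, Ccnd1, Ccnd2 and Cdkn1a).

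Uhrf1, a factor that keeps DNA methylation after replication, had 0, 1.02 and 2.86 FPKM in Acute and 4.71, 7.22 and 14 FPKM in TIC, without overlap (log2 2.15 ± 0.39, adjusted p = 0.00011). Tk1, thymidine kinase, fell from 44.3, 34.3 and 28.2 FPKM to 7.94, 11.8 and 25.2 FPKM (log2 -1.42 ± 0.31, adjusted p = 0.00074). Aurka, a kinase of the spindle poles, had 120.1, 98.1 and 70.6 FPKM in Acute. Its levels were 7.04, 13.2 and 21.2 FPKM in TIC (TIC minus Acute log2 -2.83 ± 0.30, adjusted p = 8.9e-08) and 31.3, 34.4, 19.4 and 32.6 FPKM in FCS 3d. Its level in Acute was thus above every cultured library, and it was the only G2/M gene lower in FCS 3d than in Acute (log2 -1.67 ± 0.32, adjusted p = 0.00032). Its relative Aurkb overlapped between groups, with 8.16, 18.9 and 11.3 FPKM in fresh cells and 8.23, 14.3 and 20.8 FPKM in TIC. Relative to the median of all tested genes, the differences between TIC and Acute were log2 2.43 for Uhrf1, -1.14 for Tk1 and -2.55 for Aurka. With only the libraries of high summed FPKM, neither Uhrf1 (log2 1.59, adjusted p = 0.20) nor Tk1 (log2 -1.61, adjusted p = 0.073) was called, nor with only those with few zeros (log2 0.82, adjusted p = 0.17 and log2 -0.93, adjusted p = 0.23). Aurka was called in every alternative.

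Several members were high in Acute 2 alone within the Acute group. Rrm2, the small subunit of ribonucleotide reductase, had levels of 0.835, 75 and 10.0 FPKM in Acute 1, 2 and 3, and Rrm1, its large subunit, at 6.31, 56 and 15.2 FPKM. Cyclin A2 (Ccna2) was at 6.16, 58.3 and 7.04 FPKM, Plk1 at 6.74, 38.3 and 7.15 FPKM and the topoisomerase gene Top2a at 2.97, 18.1 and 4.36 FPKM. Other members were highest in another Acute library. Ube2c, at 6.91, 14.2 and 41.1 FPKM, and Cdca3, at 7.05, 9.69 and 14.5 FPKM, were highest in Acute 3. Aurka, Cdc20, Hmmr and Nusap1 were highest in Acute 1, with Nusap1 at 12.9, 2.84 and 6.11 FPKM. Of the 10 granulocyte and monocyte markers detected in Acute, 8 were highest in Acute 2, among them S100a9 at 1267, 11587 and 6765 FPKM in Acute 1, 2 and 3, and Epx, an eosinophil gene, at 22.4, 729 and 115 FPKM. Mpo, Elane and Prg2 followed the same order, with 48.9 FPKM of Mpo and 57.2 FPKM of Elane in Acute 2. The other 2 were highest in Acute 3: S100a8, at 112, 900.3 and 3348 FPKM, and Ly6c, at 0, 8.31 and 8.92 FPKM. Their part in the Acute levels of the members was not tested, and in bulk RNA fewer cells of a type and less RNA per cell cannot be told apart. The call of Rrm2 between TIC and Acute was lost without Acute 1 (log2 0.68, adjusted p = 0.24), that of Mcm4 also without Acute 1 (log2 0.63, adjusted p = 0.12) and that of Kif20a without Acute 2 (log2 0.49, adjusted p = 0.33). The calls of Ccnb2, Prc1 and Tpx2 were each lost on leaving out any of 4 to 6 libraries (highest adjusted p = 0.13 without Acute 2, 0.28 without Acute 3 and 0.23 without Acute 1).

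After 1 day of serum no member passed the test. By limma 0 of 57 were called, beside 1.22% of all tested genes higher and 1.7% lower, and 9, of which 7 were higher, had an unadjusted p under 0.05 (12.4% of all tested genes). The values leaned upward: 46 of 57 log2 changes were above 0, against 48.3% of all tested genes, with class medians of log2 0.36 for G1/S and 0.39 for G2/M. Cyclin E1 (Ccne1) was at 2.58, 4.88 and 8.67 FPKM in TIC and at 7.92, 10.1, 9.20, 9.96 and 9.49 FPKM in FCS 1d (log2 0.87 ± 0.27, adjusted p = 0.093). Cyclin B2 (Ccnb2) was at 2.22, 6.12 and 9.93 FPKM in TIC and at 8.96, 20.3, 14.4, 25.8 and 5.85 FPKM in FCS 1d (log2 1.20 ± 0.36, adjusted p = 0.073). Both pairs of groups overlapped. Over alternative settings the count was 0 to 3, and the genes called were Ccnd1 and Cdkn1a (both lower) and Ccnb2, Ccne1 and Tk1 (all higher). Leaving out 1 library gave Ccnb2 without TIC 1 or FCS 1d 5 (log2 1.36 and 1.47, adjusted p = 0.043 and 0.019), Ccne1 without TIC 2 (log2 1.03, adjusted p = 0.036) and Tk1 without TIC 4 (log2 1.02, adjusted p = 0.020). It gave Ccnd1 without TIC 3 (log2 -1.41, adjusted p = 0.032), and Cdkn1a without TIC 1, TIC 4 or FCS 1d 5 (adjusted p = 0.023 to 0.035).

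After 3 days of serum most of the module was higher than in TIC. Of 57 members, 40 were higher and 1, Cdkn1a, was lower, beside 4.13% of all tested genes higher and 5.95% lower. The 40 comprised 13 of 21 G1/S genes, 26 of 28 G2/M genes and Cdk4. Every log2 change of a G1/S or G2/M gene was above 0, as for 44.5% of all tested genes, with class medians of log2 1.32 and 1.62, where the median over all tested genes was log2 -0.06; E2f1 fell below 0 with only the libraries with few zeros (log2 -0.09). All 3 serum groups are compared with the same 6 TIC libraries. All FCS 3d libraries were above all TIC libraries for 15 G1/S genes and 27 G2/M genes, which was the case for 5.11% of all tested genes. Summed FPKM of microglial markers was also higher in FCS 3d than in TIC (values above), but single markers differed in direction. C1qb was at 13.6 to 54.0 FPKM in TIC and 479 to 833 FPKM in FCS 3d. Ptprc was lower, at 122 to 149 FPKM in TIC and 69.2 to 86.0 FPKM in FCS 3d. Spi1 overlapped, at 128 to 381 FPKM in TIC and 120 to 171 FPKM in FCS 3d. The part of microglial content in these results was not tested.

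**Figure D3:**
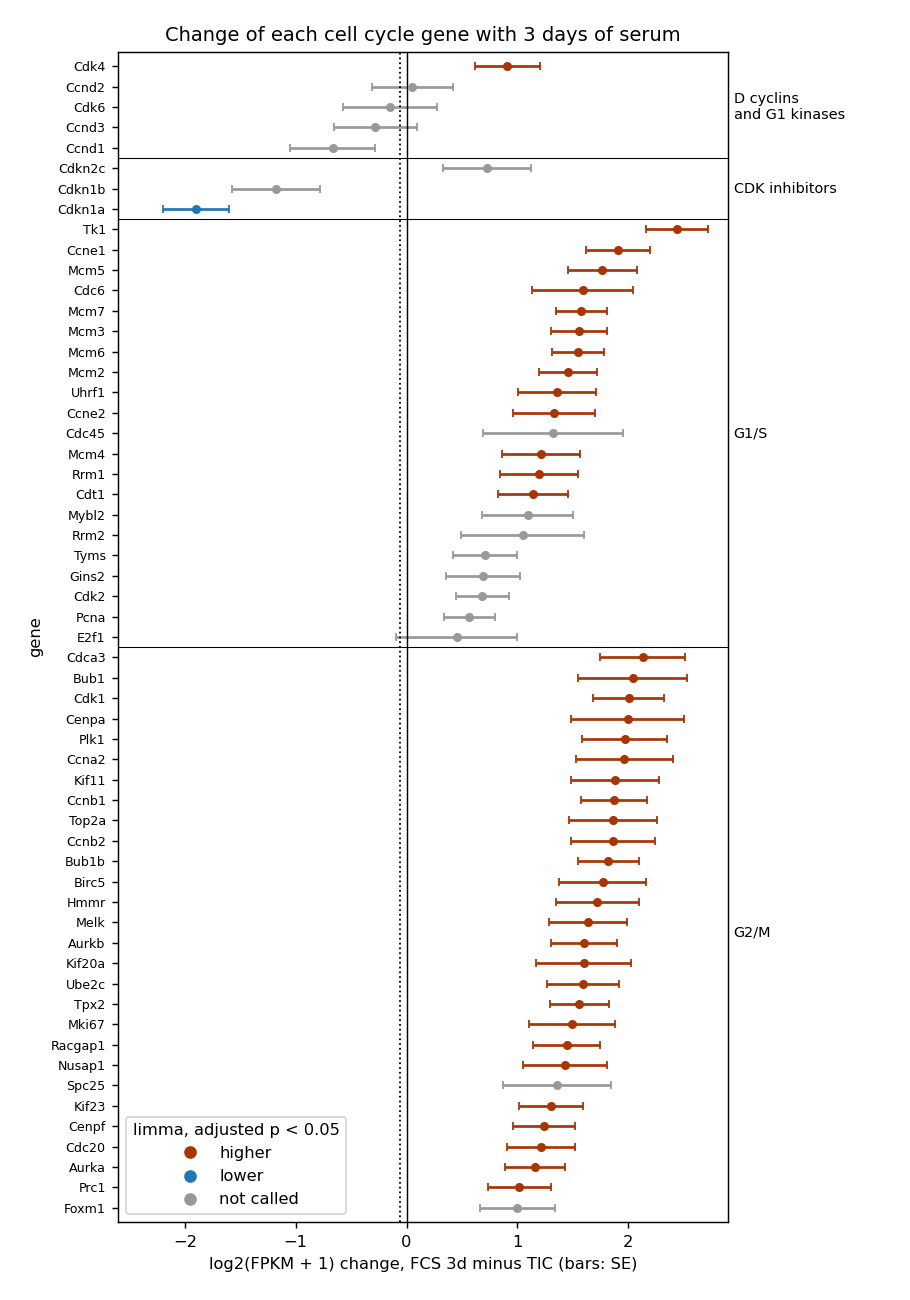
Change of each of the 57 genes on the log2(FPKM + 1) scale between FCS 3d and TIC, with its SE from limma, by class; the dotted line is the median of all tested genes (log2 -0.06). G2/M genes lie between log2 1.00 and 2.13, and Cdkn1a lies lowest at log2 -1.90.

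Among the genes that start S phase, cyclin E1 (Ccne1) reached 18.6, 20.7, 17.6 and 24.2 FPKM in FCS 3d, above all libraries of Acute, TIC and FCS 1d (log2 1.91 ± 0.29, adjusted p = 0.00015 against TIC). Cyclin E2 (Ccne2) was lower in level, 0.773, 2.63 and 6.91 FPKM in TIC and 14.2, 6.74, 8.40 and 4.97 FPKM in FCS 3d, and its groups overlapped (log2 1.33 ± 0.37, adjusted p = 0.023). The transcription factor gene E2f1 was at 0, 3.10 and 7.00 FPKM in TIC and 4.08, 2.98, 7.05 and 2.75 FPKM in FCS 3d, no call (log2 0.45 ± 0.55, adjusted p = 0.71). Mybl2, which encodes B-MYB, was at 1.34, 3.73 and 5.05 FPKM in TIC and 10.2, 5.50, 10.5 and 5.74 FPKM in FCS 3d, apart but not called (log2 1.09 ± 0.41, adjusted p = 0.10). Cdk2, the partner kinase of the E cyclins, gave no call either (log2 0.68 ± 0.24, adjusted p = 0.073). Of the licensing factors that load the helicase, Cdc6 (log2 1.59 ± 0.45, adjusted p = 0.026) and Cdt1 (log2 1.14 ± 0.31, adjusted p = 0.021) rose.

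All 6 genes of the MCM helicase, the ring that unwinds DNA at the fork, rose. Mcm2 went from 6.10, 12.7 and 17.7 FPKM (lowest, median and highest) in TIC to 33, 36.4, 27 and 40.4 FPKM in FCS 3d (log2 1.46 ± 0.26, adjusted p = 0.00075). Mcm5 went from 6.19, 9.02 and 19.8 FPKM to 37.6, 42.5, 24.8 and 43.5 FPKM (log2 1.77 ± 0.31, adjusted p = 0.00060). For each of the 6, all FCS 3d libraries were above all TIC libraries, and the changes lay between log2 1.21 for Mcm4 and 1.77 for Mcm5. The helicase cofactors Cdc45 and Gins2 were not called (log2 1.32 ± 0.63, adjusted p = 0.22 and log2 0.69 ± 0.33, adjusted p = 0.23). Pcna, the sliding clamp of the DNA polymerases, was at 80.0, 92.4 and 121 FPKM in TIC and 153, 147, 127 and 129.8 FPKM in FCS 3d. These groups did not overlap, and the change was not called (log2 0.57 ± 0.23, adjusted p = 0.14).

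Among enzymes that supply nucleotides, Tk1 showed the largest change of all members. It stood at 7.94, 11.8 and 25.2 FPKM in TIC, at 21.1, 31.4, 18.2, 31.6 and 16.2 FPKM in FCS 1d, at 69.9, 73.5, 71.9 and 72.3 FPKM in FCS 3d and at 34.7, 69.9, 56.6 and 67.2 FPKM in FCS 5d. The FCS 3d libraries lay close together and all above those of TIC, FCS 1d and Acute (log2 2.44 ± 0.28, adjusted p = 4.5e-06 against TIC). Rrm1 rose (log2 1.20 ± 0.35, adjusted p = 0.029), while Rrm2, at 29.5, 46.8 and 61.4 FPKM in TIC and 98.8, 102, 83.2 and 97.4 FPKM in FCS 3d, did not pass although its groups did not overlap (log2 1.05 ± 0.55, adjusted p = 0.28). Tyms, thymidylate synthase, was not called (log2 0.71 ± 0.29, adjusted p = 0.14).

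Among mitotic genes, Cdk1, the kinase that drives entry into mitosis, was at 9.77, 27.4 and 41.3 FPKM in TIC and at 89.3, 120.2, 88.5 and 105 FPKM in FCS 3d (log2 2.0 ± 0.32, adjusted p = 0.00022). Its partner cyclin B1 (Ccnb1) went from 5.57, 10.6 and 17.5 FPKM to 46.6, 42.2, 33.1 and 36.6 FPKM (log2 1.87 ± 0.30, adjusted p = 0.00023), and cyclin A2 (Ccna2) from 14.8, 20.3 and 31.7 FPKM to 134, 69, 80.2 and 66.1 FPKM (log2 1.97 ± 0.44, adjusted p = 0.0046). In all these genes every FCS 3d library was above every TIC library. Mki67 went from 1.86, 5.40 and 8.20 FPKM to 21.5, 13.9, 11.2 and 15.5 FPKM (log2 1.49 ± 0.39, adjusted p = 0.014), a call lost without FCS 3d 1 (adjusted p = 0.065). Top2a, which untangles DNA, went from 4.00, 7.18 and 9.25 FPKM to 28.2, 26.5, 21.5 and 29.3 FPKM (log2 1.86 ± 0.40, adjusted p = 0.0033). The transcription factor gene Foxm1 was low, at 0.879, 1.78 and 3.93 FPKM in TIC and 4.76, 4.37, 4.00 and 5.36 FPKM in FCS 3d, apart but not called (log2 1.0 ± 0.34, adjusted p = 0.060).

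The largest G2/M changes were in Cdca3, a trigger of mitotic entry, and Bub1, a kinase of the spindle checkpoint. Cdca3 was at 3.32, 9.13 and 21.3 FPKM in TIC and at 42, 62.6, 27.2 and 57.3 FPKM in FCS 3d (log2 2.13 ± 0.38, adjusted p = 0.00075). Bub1 was at 0, 3.58 and 6.05 FPKM and 16.4, 12.9, 18.1 and 11.7 FPKM (log2 2.04 ± 0.49, adjusted p = 0.0087). The checkpoint gene Bub1b (log2 1.82 ± 0.28, adjusted p = 0.00015) rose as well, as did Cdc20 (log2 1.21 ± 0.31, adjusted p = 0.012), which activates the anaphase-promoting complex, and its ubiquitin-conjugating enzyme gene Ube2c (log2 1.59 ± 0.32, adjusted p = 0.0021). Ube2c, at 163 ± 26.2 FPKM (mean ± SD, n = 4), had the highest mean of all 57 members in FCS 3d. Motor and midzone genes Kif11, Kif20a, Kif23, Racgap1 and Prc1 rose by log2 1.02 (Prc1) to 1.88 (Kif11), and the kinases Plk1, Aurkb and Aurka by log2 1.97, 1.60 and 1.16. Aurka was the only called G2/M gene whose groups overlapped. Spc25, of the outer kinetochore, was not called (log2 1.36 ± 0.48, adjusted p = 0.080).

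Of the 41 calls at 3 days, 29 remained without any 1 library and all kept their sign under 23 alternatives. Beside Cdk4 and Mki67, the calls lost were those of Ccne2 and Rrm1 (log2 1.08 and 1.10, adjusted p = 0.11 and 0.097 without FCS 3d 1), Cdc6 and Mcm4 (log2 1.51 and 1.15, adjusted p = 0.079 and 0.085 without FCS 3d 2), and Cdt1, Nusap1 and Prc1 without FCS 3d 1, Kif20a and Uhrf1 without FCS 3d 2 and Cdc20 without FCS 3d 4 (adjusted p = 0.055 to 0.082). For Ccne2, Cdc6 and Mcm4 TIC 5 also ended the call when left out, and for Prc1 and Rrm1 TIC 3. Fitted on only the libraries with many zeros, 3 of TIC and 2 of FCS 3d, 4 members were called (Cdk1, Mcm7, Spc25 and Tk1), with class medians of log2 1.21 and 1.71. On only the libraries with low summed FPKM, 47 were called, 40 of them among the 41.

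Set side by side, the 2 classes differed in degree. The 21 G1/S genes summed to 329.8 ± 44.9 FPKM in TIC, 399.5 ± 80.4 FPKM in FCS 1d, 759.6 ± 72.5 FPKM in FCS 3d and 621 ± 56.6 FPKM in FCS 5d (mean ± SD). The 28 G2/M genes summed to 292 ± 79.1, 366 ± 106, 940.2 ± 105 and 863 ± 71.1 FPKM in the same groups. The G2/M sum divided by the G1/S sum was 0.816 to 0.963 in Acute, 0.613 to 1.02 in TIC, 0.723 to 1.04 in FCS 1d, 1.20 to 1.32 in FCS 3d and 1.28 to 1.61 in FCS 5d. The last pair of groups was thus above the other 3 in every library. A few abundant genes weigh most in such sums; with each gene weighted alike, the mean log2(FPKM + 1) of G2/M less that of G1/S was -0.84 to -0.13 in TIC, -0.40 to -0.02 in FCS 1d, -0.02 to 0.05 in FCS 3d and 0.01 to 0.52 in FCS 5d, and Acute 1 reached 0.18. On this scale FCS 1d 4, at -0.0223, lay next to FCS 3d 3, at -0.0212, and Acute overlapped the serum groups. The ratio was given no test, since it is a score over the chosen genes.

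**Figure D4:**
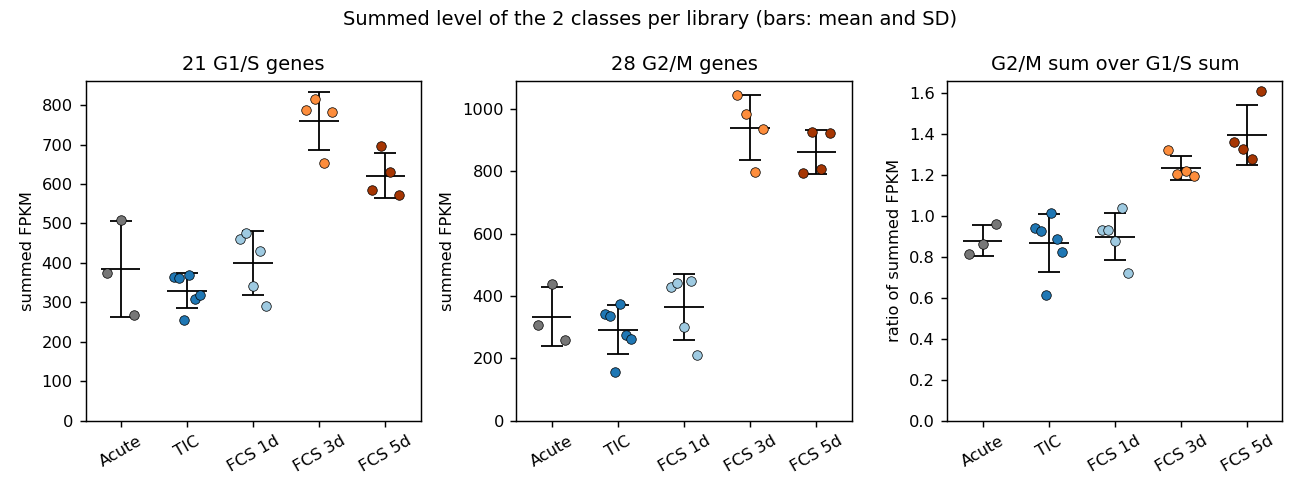
Summed FPKM of the 21 G1/S genes and of the 28 G2/M genes, and their ratio, in each library (points) with group means and SD (bars). The ratio is 1.20 to 1.61 in the 8 libraries of FCS 3d and FCS 5d and at most 1.04 in the other 14.

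The step from 1 to 3 days of serum was tested directly. In FCS 3d, 9 of 57 members were higher than in FCS 1d and 0 lower, beside 0.444% of all tested genes higher and 0.64% lower. They were Mcm6, Mcm7 and Tk1 of G1/S, and Top2a, Ube2c, Ccnb1, Cdc20, Bub1b and Racgap1 of G2/M. An unadjusted p under 0.05 was given by limma to 43 members, of which 42 were higher, against 4.91% of all tested genes higher. Ube2c was at 47.5, 48.9, 33.7, 44.6 and 34.3 FPKM in FCS 1d and at 200.0, 162, 149 and 141 FPKM in FCS 3d, without overlap (log2 1.94 ± 0.33, adjusted p = 0.0033), while TIC had been at 30.4, 55.9 and 75.2 FPKM. Mcm7 went from 22.9, 14.5, 16.6, 27.3 and 11.6 FPKM to 47.7, 49.5, 45.1 and 51.2 FPKM (log2 1.39 ± 0.24, adjusted p = 0.0032), and Tk1 changed by log2 1.61 ± 0.29 (adjusted p = 0.0050). Class medians were log2 0.95 for G1/S and 1.27 for G2/M, and libraries stood apart upward for 10 G1/S and 23 G2/M genes, against 4.04% of all tested genes. The count fell to 3 without FCS 1d 3, FCS 1d 5, FCS 3d 1, FCS 3d 2 or FCS 3d 4 and to 5 without FCS 3d 3, was 4 with a pseudocount of 0.1 and 21 with 5, and was 24 in libraries of low summed FPKM; Mcm7, Tk1 and Ube2c passed whichever library was left out.

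After 5 days of serum most of the module was higher than in TIC. There were 36 members higher than TIC and 2 lower (Cdkn1a and Ccnd2), beside 4.81% of all tested genes higher and 8.1% lower. The 36 comprised 10 of 21 G1/S genes and 26 of 28 G2/M genes, with class medians of log2 0.99 and 1.60. Libraries stood apart upward for 13 G1/S and 25 G2/M genes, against 5.15% of all tested genes. Mki67 was at 21.9, 18.7, 18.6 and 22.3 FPKM in FCS 5d (log2 1.90 ± 0.39, adjusted p = 0.0016 against TIC). Cdk1 was at 77.1, 113, 98.3 and 105 FPKM (log2 1.97 ± 0.32, adjusted p = 0.00016) and Mcm2 at 22.7, 34, 32.3 and 25.2 FPKM (log2 1.20 ± 0.26, adjusted p = 0.0032). Pcna, at 118, 124, 97.2 and 95 FPKM, overlapped TIC (log2 0.20 ± 0.23, adjusted p = 0.66). Foxm1, not called at 3 days, was at 4.5, 3.96, 4.36 and 5.87 FPKM (log2 1.01 ± 0.34, adjusted p = 0.049), a call lost on leaving out any of 8 libraries (log2 0.91, adjusted p = 0.15 without FCS 5d 4). Of the 38 calls 30 remained without any 1 library; beside Foxm1 and Ccnd2, those of Aurka (log2 0.82, adjusted p = 0.09 without FCS 5d 3), Cdc6, Cdt1, Kif20a, Prc1 and Ccna2 were lost (adjusted p = 0.05 to 0.11). In libraries with many zeros, where FCS 5d has 1 library, no member was called.

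No member differed between 5 and 3 days by the test. By limma 0 of 57 were called, beside 0.279% of all tested genes higher and 0.351% lower, and Ccnd2 (lower) and Cdkn1b (higher) had an unadjusted p under 0.05 (7.66% of all tested genes). The log2 change was below 0 for 20 of 21 G1/S genes, with a class median of log2 -0.32, and for 19 of 28 G2/M genes, with a class median of log2 -0.07, where 46.3% of all tested genes were above 0. Libraries of FCS 5d were below all of FCS 3d for 5 members (Ccnd2, Mcm7, Pcna, Kif23 and Spc25), and for 5.95% of all tested genes. Mcm7 at 33.7, 42.1, 34.9 and 40.4 FPKM and Pcna at 118, 124, 97.2 and 95 FPKM in FCS 5d were below every FCS 3d library (log2 -0.35 ± 0.25, adjusted p = 0.92 and log2 -0.36 ± 0.25, adjusted p = 0.92). Cdkn1b was at 1.24, 3.28, 3.24 and 5.25 FPKM in FCS 5d (log2 1.17 ± 0.44, adjusted p = 0.41). Ccnd2 (log2 -1.20 ± 0.40, adjusted p = 0.28) was called in 2 alternatives, in libraries of low summed FPKM and with the zero division as a term.

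**Figure D5:**
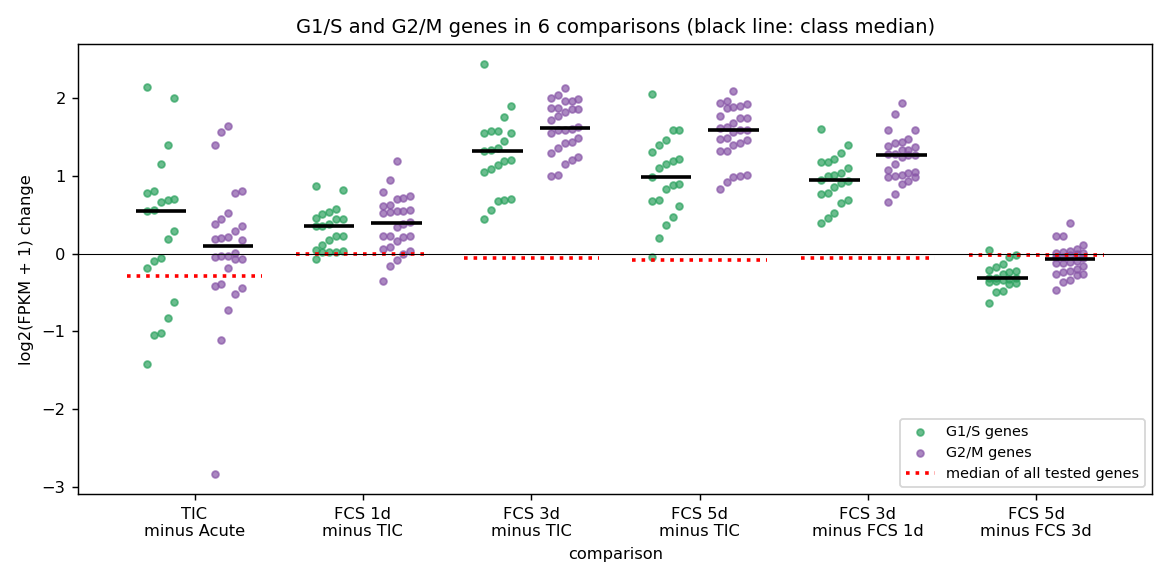
Log2(FPKM + 1) change of each G1/S gene and each G2/M gene (points) in 6 comparisons, with the class medians (black) and the median of all tested genes (dotted). Both classes lie above 0 in FCS 3d minus TIC (medians of log2 1.32 and 1.62) and near or below 0 in FCS 5d minus FCS 3d (log2 -0.32 and -0.07); the comparisons with TIC share its 6 libraries.

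Most members were also higher after 3 days of serum than in freshly isolated cells. In FCS 3d, 41 of 57 members were higher than in Acute and 2 lower (Cdkn1b and Aurka), beside 11.9% of all tested genes higher and 27.4% lower. The median over all tested genes was log2 -0.35, against which Pcna stood at log2 0.30 and Ccne1 at log2 3.41. Of the G1/S genes 16 were higher, with a class median of log2 1.77, and of the G2/M genes 21, with a class median of log2 1.83. The largest changes were in the CDK inhibitor gene Cdkn1a (log2 3.67, adjusted p = 2.5e-08) and in Uhrf1 (log2 3.50, adjusted p = 7.8e-07). Ccne1 (log2 3.06 ± 0.34, adjusted p = 3.1e-07), Ube2c (log2 3.24 ± 0.38, adjusted p = 6.8e-07) and Melk (log2 3.20 ± 0.42, adjusted p = 2.8e-06) were also among the largest. Pcna was not called (log2 -0.05 ± 0.27, adjusted p = 0.91), with 217, 170.4 and 80.0 FPKM in Acute around the 139 ± 12.9 FPKM of FCS 3d. The calls of Bub1, Cdc45, Cdc6, Cenpa, Mki67 and Tk1 were each lost on leaving out Acute 1 or Acute 3 (adjusted p = 0.065 to 0.23). That of Cdc45 was lost on leaving out any 1 of 6 libraries, among them every FCS 3d library, and that of Bub1 also without FCS 3d 1 or FCS 3d 3. All Acute libraries had high summed FPKM and all FCS 3d libraries low. With that division as a term in the fit, 31 members were called, 30 of them among the 43. The G1/S and G2/M medians became log2 1.10 and 1.39, and that of all tested genes log2 0.11. With median-of-ratios or quantile scaling 50 members were called. This comparison shares its FCS 3d libraries with those above, and Acute differs from them in culture, serum and the cell types described above, which cannot be told apart here.

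Other genes of the same pathways, 60 of replication and 68 of mitosis from textbook lists, were tested as further lists. In FCS 3d against TIC, 25 of 56 tested replication genes were higher and 0 lower (median log2 0.97), beside 4.13% and 5.95% of all tested genes, among them Cdca7 (log2 2.19 ± 0.30, adjusted p = 3.3e-05) and the helicase cofactor Gins1 (log2 1.93 ± 0.45, adjusted p = 0.0070). Of 52 tested mitosis genes 35 were higher and 0 lower (median log2 1.31), among them the nuclear lamina gene Lmnb1 (log2 2.01 ± 0.55, adjusted p = 0.020), the cohesin protector gene Sgol2 (log2 1.85 ± 0.44, adjusted p = 0.0074), Cep55 (log2 1.81 ± 0.45, adjusted p = 0.011) and the motor gene Kifc1 (log2 1.80 ± 0.37, adjusted p = 0.0026). After 1 day, the replication genes Lig1, a DNA ligase (log2 1.27 ± 0.29, adjusted p = 0.013), and Cdca7 (log2 1.09 ± 0.28, adjusted p = 0.029) were called higher and no mitosis gene was, beside 1.22% of all tested genes higher. After 5 days, 21 replication and 34 mitosis genes were higher than in TIC and 0 lower, beside 4.81% and 8.1% of all tested genes, with the securin gene Pttg1 at log2 2.35 ± 0.32. Against Acute, where 14.7% of all tested genes were higher in TIC and 27.7% lower, TIC had 2 of 56 replication genes higher and 12 lower (median log2 -0.24), with Cdca7 from 45.8 to 1.87 FPKM (log2 -3.97 ± 0.33, adjusted p = 1.3e-09), and 10 of 52 mitosis genes higher and 6 lower (median log2 0.26), with the checkpoint kinase Ttk from 38.8 to 3.82 FPKM (log2 -3.05 ± 0.36, adjusted p = 3.7e-07).

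A further list held RB, E2F and MuvB genes together with other cell cycle regulators, namely Myc, Cdc25a, Wee1, Pkmyt1, Chek1 and Chek2. Of its 17 tested genes, 4 were higher in FCS 3d than in TIC and 0 lower, beside 4.13% and 5.95% of all tested genes. From the E2F genes came the repressor E2f7 (log2 1.71 ± 0.34, adjusted p = 0.0018) and the E2F partner Tfdp1 (log2 1.11 ± 0.22, adjusted p = 0.0015). From the other regulators came the checkpoint kinase Chek2 (log2 1.33 ± 0.32, adjusted p = 0.0085) and Myc, from 13.4 to 28.2 FPKM (log2 1.06 ± 0.28, adjusted p = 0.017). In FCS 5d against TIC 1 gene of this list was higher and 1 lower, beside 4.81% and 8.1%. Myc was 16.9 ± 4.48 FPKM in FCS 5d, no call against TIC (log2 0.34 ± 0.28, adjusted p = 0.52). The E2F4 gene E2f4 and the pocket protein genes Rbl1 and Rbl2 were not called at 3 days (adjusted p = 0.15, 0.10 and 0.77). Rb1 was among 5203 genes listed at 0 in every library. Whether that reflects absent RNA or a gap in the FPKM table was not tested. The INK4 inhibitor gene Cdkn2b rose from a mean of 1.36 to 23.1 FPKM between Acute and TIC (log2 3.56 ± 0.42, adjusted p = 4.4e-07), fell from 23.1 to 6.77 FPKM between TIC and FCS 3d (log2 -1.55 ± 0.38, adjusted p = 0.010) and was also lower in FCS 5d (log2 -1.67 ± 0.38, adjusted p = 0.0045 against TIC). Cdkn2a was listed at 0 in all Acute libraries, was 7.83 to 30.4 FPKM in TIC and 1.37 to 9.63 FPKM in FCS 5d (log2 -1.81 ± 0.49, adjusted p = 0.016 against TIC).

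Targets of p53, the factor that also switches on Cdkn1a, formed a further list of 22 genes, of which 19 were tested. In TIC against Acute 7 were higher and 3 lower, beside 14.7% and 27.7% of all tested genes, with Phlda3 (log2 3.82 ± 0.55, adjusted p = 7.3e-06), cyclin G1 (Ccng1; log2 2.57 ± 0.23, adjusted p = 7.2e-09) and Aen (log2 2.42 ± 0.29, adjusted p = 6.6e-07) among the higher and Ccng2 (log2 -2.31 ± 0.42, adjusted p = 0.00013) among the lower. In FCS 3d against TIC 0 were higher and 5 lower, beside 4.13% and 5.95%: Bbc3 (log2 -2.49 ± 0.48, adjusted p = 0.0015), Gadd45a (log2 -2.45 ± 0.39, adjusted p = 0.00022), Btg1 (log2 -2.11 ± 0.35, adjusted p = 0.00036), Gadd45b (log2 -1.73 ± 0.37, adjusted p = 0.0030) and Mdm2 (log2 -1.0 ± 0.24, adjusted p = 0.0079). In FCS 5d against TIC 5 were lower and 1 higher, beside 8.1% and 4.81%, with Gadd45a lower (log2 -3.69 ± 0.39, adjusted p = 6.5e-07) and Sesn1 the 1 that was higher (log2 1.89 ± 0.44, adjusted p = 0.0047). Of the CSF genes, the ligand gene Csf1 rose from a mean of 1.28 to 27.4 FPKM between Acute and TIC (log2 3.44 ± 0.40, adjusted p = 3.1e-07). It fell from 27.4 to 5.27 FPKM between TIC and FCS 3d (log2 -2.0 ± 0.36, adjusted p = 0.00075) and was at 1.49 ± 0.38 FPKM in FCS 5d (log2 -3.33 ± 0.36, adjusted p = 9.4e-07 against TIC). Its receptor gene Csf1r fell from 2325 to 486 FPKM between Acute and TIC (log2 -2.24 ± 0.24, adjusted p = 8.5e-08) and was not called between TIC and FCS 3d (log2 0.38 ± 0.22, adjusted p = 0.33).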

How the data were processed

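The authors deposited 1 table of FPKM per gene symbol, with 1 column per sample. The submitters' processing notes list HISAT2 2.0.3, Cufflinks 2.2.1 and rn6, a rat genome build. For settings, annotation, filters and scaling, nothing is given in the sources used here. Per the labels, poly-A RNA was amplified by SmartSeq2 and libraries were made in 2 batches. The batch of each sample is not given, so batch and sample cannot be told apart and batch entered no fit.

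FPKM were taken as log2(FPKM + 1); this pseudocount understates the change of low genes. The 5 group means were fitted together on the 22 samples with limma 3.58.1 (R 4.3.3), variance trend and robust moderation, over 9691 genes reaching 1 FPKM in 3 or more samples. Tests were two-sided. The call threshold was 0.05 on p-values adjusted by Benjamini-Hochberg over all 9691, and every adjusted p is limma's. The samples are biological replicates per the series, with no animal named, so p-values measure the spread between samples that may share animals.

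The members and lists were chosen with earlier results of these data known. By a fixed rule every member could be named, and of the other lists up to 4 called genes with the largest change, up to 2 against and a few fixed regulators. Depth is unknown. Steps between low values, clear in 7 libraries, gave depths of 0.856 to 1.13 times that of TIC 1. These were TIC 2 and 3, FCS 1d 1 and 2, FCS 3d 1 and 3 and FCS 5d 1. Like TIC 1 they are all libraries with many zeros. No library with few zeros gave a clear step, so the range does not cover those. Promoter windows were searched with Python 3.11.15. Alternatives were pseudocounts of 0.1 and 5, no filter and a filter at 5 FPKM, median-of-ratios and quantile scaling, only the groups compared, a replicate block and each library left out. Divisions of libraries by summed FPKM and by zeros were added after seeing the data. Genes with near-identical copies may share reads. Some genes that the rule would name are not reported here.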

Additional observations from a re-analysis of the deposited data

Results flagged for a closer look

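Of 236 sets of values of a member or of a class sum in a group of 4 to 6 libraries, 12, all of members, held a library far from the others by Dixon's test at 95%, which chance gives in about 1 of 20 sets. In TIC, Cdkn2c was 10.9 FPKM in TIC 5 (3.47 to 5.84 in the others), Spc25 19.9 FPKM in TIC 5 (5.94 to 9.99) and Mcm3 20.8 FPKM in TIC 4 (10.7 to 13.9). In FCS 1d, Ccnd3 was 57 FPKM (21.9 to 30.5) and Mki67 1.5 FPKM (6.95 to 9.18) in FCS 1d 5, and Pcna 133 FPKM in FCS 1d 2 (84.2 to 93.8). In FCS 3d, Cdkn1a was 31.9 FPKM in FCS 3d 3 (18.7 to 19.3) and Kif23 17.4 FPKM in FCS 3d 1 (9.23 to 9.42). In FCS 5d, Ccnd2 was 17 FPKM (43.1 to 46.7) and E2f1 9.07 FPKM (1.31 to 1.65) in FCS 5d 1, and Rrm2 66.1 FPKM (86.1 to 89.7) and Kif23 8.96 FPKM (7.20 to 7.26) in FCS 5d 4.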

How the results depend on the processing

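Counts of called members were 41 in FCS 3d minus TIC (33 to 41 without 1 library), 38 in FCS 5d minus TIC (32 to 39), 43 in FCS 3d minus Acute (39 to 45), 19 in TIC minus Acute (15 to 21), 9 in FCS 3d minus FCS 1d (3 to 10), 0 in FCS 1d minus TIC (0 to 2) and 0 in FCS 5d minus FCS 3d (0 to 0). With only the libraries with many zeros these became 4 in FCS 3d minus TIC, 0 in FCS 5d minus TIC and 0 in FCS 3d minus FCS 1d, with fewer samples in each fit. FCS 3d minus FCS 1d gave 4 with a pseudocount of 0.1, 21 with 5, 15 with quantile scaling, 19 with only the groups compared, 24 in low summed-FPKM libraries and 16 with the zero division as a term. FCS 1d minus TIC gave 2 with a pseudocount of 5, median-of-ratios scaling, low summed-FPKM libraries, and with either library division as a term. It gave 1 with a filter at 5 FPKM, quantile scaling, only the groups compared and libraries with few zeros. TIC minus Acute gave 12 with only the groups compared, 4 in high summed-FPKM libraries and 10 in libraries with few zeros. FCS 5d minus FCS 3d gave 1 in low summed-FPKM libraries and with the zero division as a term.

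Same-numbered samples gave correlations of their deviations from -0.09 to 0.48, and in no comparison was every pair over 0.1, so the numbers were not taken as pairs. As a hint from the data, 4 of 5 pairs were over 0.1 in FCS 1d minus TIC (lowest 0.097) and 3 of 4 in FCS 3d minus TIC, and in FCS 5d minus FCS 3d all 4 samples correlated best with their own number. With a replicate block the counts were 26 in TIC minus Acute, 3 in FCS 1d minus TIC, 40 in FCS 3d minus TIC, 35 in FCS 5d minus TIC, 13 in FCS 3d minus FCS 1d, 0 in FCS 5d minus FCS 3d and 43 in FCS 3d minus Acute. The block gave a G1/S median of log2 1.06 in FCS 3d minus TIC.

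The G1/S median in FCS 3d minus TIC, log2 1.32 (1.20 to 1.48 without 1 library), was 0.98 with a pseudocount of 5, 1.08 in low summed-FPKM libraries and 1.04 with the division by summed FPKM as a term. The G2/M median, log2 1.62 (1.47 to 1.78), was 1.19 with a pseudocount of 5. In FCS 3d minus FCS 1d the G1/S median, 0.95 (0.82 to 1.03), was 0.59 and the G2/M median, 1.27 (1.02 to 1.35), was 0.88 in libraries with many zeros; the latter was 0.89 with a pseudocount of 5. In FCS 5d minus FCS 3d the medians without 1 library were -0.37 to -0.21 and -0.14 to 0.01. Signs of uncalled genes turned in FCS 3d minus TIC for Ccnd2 (log2 0.05; -0.14 to 0.21 without 1 library, below 0 without TIC 2, TIC 3, FCS 3d 3 or FCS 3d 4; -0.32 in libraries with few zeros), Cdk6 (0.028 in low summed-FPKM libraries, 0.043 with many zeros), Ccnd3 (0.0096 with the summed-FPKM term) and E2f1 (-0.0901 with few zeros). Cdc45, called in FCS 3d minus Acute, turned to -0.60 with the summed-FPKM term. The cause was not tested.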
